A study of Mus musculus with 12 samples.

Results

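The genes of potassium, sodium and HCN channels were examined in the cerebral cortex of CD mice, which model Williams-Beuren syndrome, and of wild-type (WT) mice, with or without co-treatment with verapamil and curcumin (VERCUR). The set was chosen by gene symbol: all protein-coding genes of the deposited table named Kcn with letters and a number, Scn with a number and the letter a or b, or Hcn with a number. The rule found 94 of the 17202 genes of the table, 14749 of which were protein-coding. It used no measured value. All 94 passed the filter on low values, which required an average of 10 normalized counts or more across the 12 mice and left 17111 genes in all.

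CD mice carry a heterozygous deletion from Gtf2i to Fkbp6 on chromosome 5, so that 1 copy of each gene of the interval is left, and the study's methods describe the mice as males crossed with a Thy1-YFP transgene that labels pyramidal neurons. Each of the 4 groups held 3 mice of strain C57Bl6, with cortex taken at 16 weeks of age per the labels, while the methods give a younger age. Mice of the VEH-WT and VEH-CD groups are called untreated in the labels, while the methods describe them as drinking vehicle (water with DMSO). VERCUR-WT and VERCUR-CD mice drank curcumin at 60 and verapamil at 10 mg/kg/day per the labels. The methods give a lower verapamil dose, and the labels' start at 8 weeks with 1 month of treatment does not add up to their age of 16 weeks, so age, dose and duration are uncertain. The labels name the tissue cortex and the methods frontal cortex. The markers of cortical excitatory neurons were present in every mouse (8 of 8 listed, with a summed normalized count of 307400 to 376200), and Limk1, a gene of the deleted interval, lay at 4112 to 4567 in the 6 WT mice and at 1716 to 1994 in the 6 CD mice. The depth was 40290000 to 56480000 counted reads per mouse, as recovered from the steps of the normalized values.

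Potassium channels return the membrane toward rest after a spike. Voltage-gated (Kv) channels do so when the cell is depolarized, while inward rectifiers (Kir) and tandem-pore (K2P) channels set the resting potential. Voltage-gated sodium channels (Nav) carry the upstroke of the action potential, and HCN channels open on hyperpolarization and carry the mixed cation current Ih, which shapes dendritic integration in cortical pyramidal neurons. Verapamil blocks L-type calcium channels and is also known to block some Kv channels, among them the one encoded by Kcnh2.

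The 94 genes were sorted by symbol into 9 classes: 28 Kv alpha subunits, 9 silent Kv subunits, which form channels only together with other Kv subunits, 11 auxiliary subunits of potassium channels, 7 calcium- and sodium-activated potassium channel subunits, 13 Kir, 10 K2P, 4 HCN, 8 Nav alpha and 4 Nav beta subunits. Together they held 0.869% of all normalized counts. Kv alpha subunits made up 35.5% of the channel counts, Nav beta subunits 13.8%, auxiliary subunits 13.6% and Nav alpha subunits 10.1%. Per kilobase of annotated exon, the median channel gene stood at 322 normalized counts, against 161 for all genes tested. The lowest level per kilobase was that of Scn9a, best known from sensory neurons, at 1.89.

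**Figure D1:**
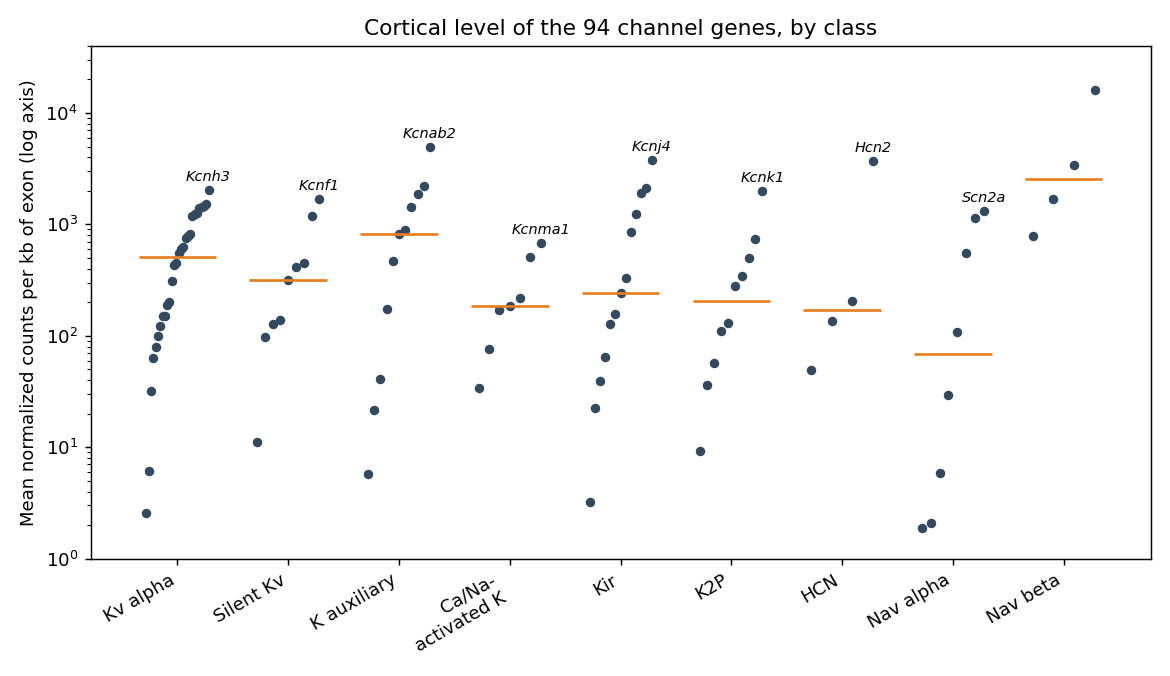
Mean normalized counts per kilobase of exon over the 12 mice (log axis) for each of the 94 channel genes, by class. Each point is a gene, the orange lines are the class medians, and the gene of highest level is named in 8 of the 9 classes. Nav beta subunits have the highest class median (2571) and Nav alpha subunits the lowest (68.6), although Scn2a reaches 1314.

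Within each class a few genes stood far above the rest. Among Kv alpha subunits the highest per kilobase was Kcnh3 (2032 normalized counts per kilobase), a forebrain member of the ether-a-go-go family, followed by Kcna2 (1524), a subunit of axonal low-threshold channels. Kcnf1 (1683) led the silent subunits, Kcnab2 (4984), a Kv beta subunit, led the auxiliary subunits, and Kcnma1 (685), the BK channel, led the calcium- and sodium-activated class. The Kir class was led by Kcnj4 (3747) and the K2P class by Kcnk1 (1980). Hcn2 stood at 3726 normalized counts per kilobase, against 135 for Hcn3 and 49.0 for Hcn4. Among sodium channel alpha subunits, Scn2a (1314) and Scn8a (1147) were ahead of Scn1a (553) and Scn3a (108).

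At the other end, 11 of the 94 genes had a mean below 100 normalized counts and 13 a mean above 10000. The lowest 3 means belonged to Kcnh8 (11.7), Kcnj5 and Scn10a (16.6). Counts this low left wide errors: Kcnj5 ranged from 5 to 35 over the 12 mice. The coefficient of variation (CV) within groups, pooled over the 4 groups, had a median of 11.2% for the channel genes and of 10.0% for all genes tested. It was below 10% for 40 channel genes and 20% or more for 18. Kcnk3, an acid-sensitive K2P channel, was the steadiest at 2.6%. Scn4b, the beta subunit of resurgent sodium current, reached 46.4%, although its mean of 8462 normalized counts was far from the low end.

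Some channel genes, like some genes outside the set, followed single mice rather than groups. In each group 1 mouse had 1.91 to 4.24 times the striatal marker sum of the other pair (8 of 8 markers present and none at 0): VERCUR-WT 3 had a sum of 44070 normalized counts, VEH-CD 1 of 41630, VEH-WT 3 of 37830 and VERCUR-CD 1 of 33360, and the 8 other mice of 10240 to 20750. The same 4 mice also had the highest oligodendrocyte and interneuron marker sums of their groups. Of the 94 channel genes, 5 were highest in exactly these mice in all 4 groups: Scn4b, Kcna5, Kcnab1, Kcnip2 and Hcn2. So were 533 of all 17111 genes tested (3.11%), so the pattern was not particular to channel genes.

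Scn4b lay at 8609, 8216 and 13260 normalized counts in VEH-WT mice, at 13660, 6301 and 7452 in VEH-CD, at 4171, 5728 and 13744 in VERCUR-WT and at 10037, 5345 and 5018 in VERCUR-CD. The mouse of high striatal markers held 1.58, 1.99, 2.78 and 1.94 times the mean of the other pair in the 4 groups as listed, and of the remaining 8 values the 4 of VEH mice were above the 4 of VERCUR mice, as the striatal marker sums of these mice were too. Kcna5, a Kv alpha subunit of low cortical level, had ratios of 1.69, 1.44, 2.37 and 1.65 in the same order. For Kcnab1, Kcnip2 and Hcn2 the ratios were smaller, between 1.06 and 1.45. In the opposite direction, Kcnk9, Scn7a, Hcn4 and Kcnip4 were lowest of their group in all 4 of these mice (2.58% of all genes tested), with Scn7a at 0.584 to 0.781 of the other pair. The part of striatal tissue in these values was not tested.

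**Figure D2:**
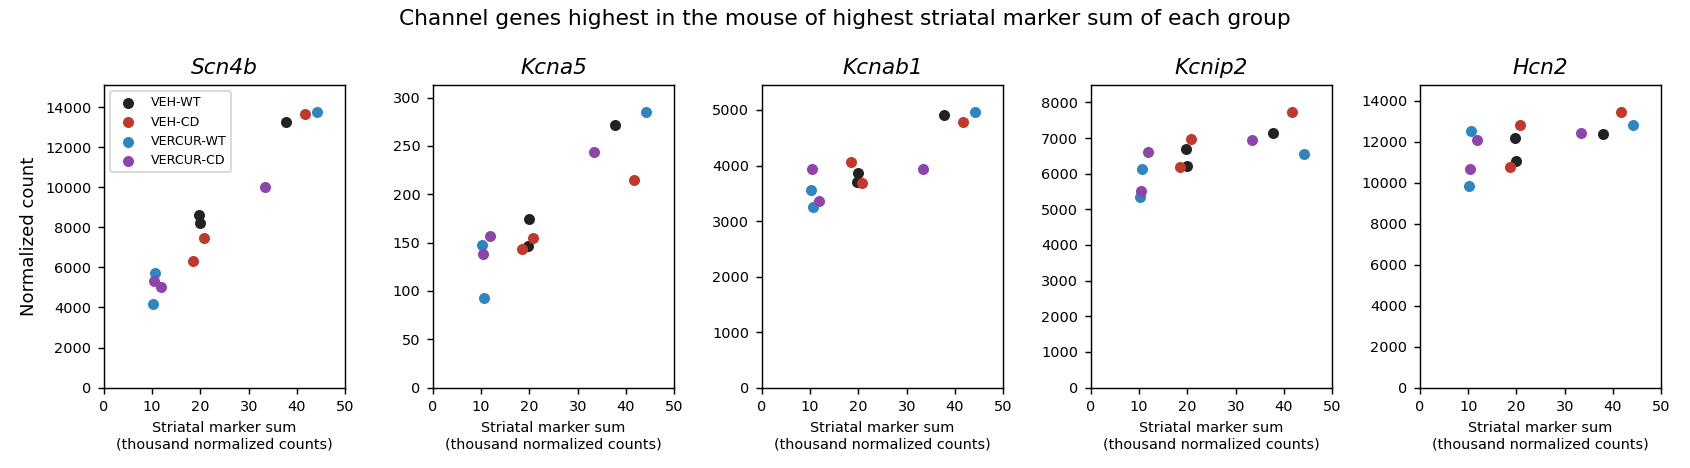
Normalized counts of 5 channel genes (y axis, from 0) in each of the 12 mice against the summed normalized count of 8 striatal neuron markers (x axis, divided by 1000), coloured by group. The 4 mice to the right, 1 of each group, hold the highest Scn4b and Kcna5 of their groups, and the spread is much smaller for Kcnab1, Kcnip2 and Hcn2.

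A further mouse stood apart. VERCUR-CD 2 held the highest value of the 12 mice for 30 of the 94 channel genes (31.9%), against 21.5% of all genes tested. They included Scn1a, Scn2a, Scn3a, Scn8a, Kcna1, Kcna2, Kcna3, Kcnb2, Kcnq3, Kcnq5 and Kcnma1. Kcna1, the Kv1.1 subunit, lay at 4403 normalized counts there and at 2373 to 3617 in the other 11 mice. The excitatory neuron marker sum was also the highest of all mice in VERCUR-CD 2, at 376200 normalized counts. Camk2a alone made up 230024 of it. Slc17a7 and Neurod6, 2 other markers of the list, were higher in other mice, at up to 106911 and 6495 against 100869 and 5148. VERCUR-CD 2 had the highest total of normalized counts as well, 50770000 against 47430000 to 49100000 in the other mice. VERCUR-CD 1 held the highest value for 0 channel genes, against 5.87% of all genes tested. The lowest values were most often in VEH-CD 1 and VERCUR-WT 1, with 18 channel genes each (19.1%, against 9.74% and 8.17% of all genes). The VERCUR-CD group had the widest spread of summed Kv alpha counts, 138100 to 168700, and of Nav alpha counts, 38980 to 52210.

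**Figure D3:**
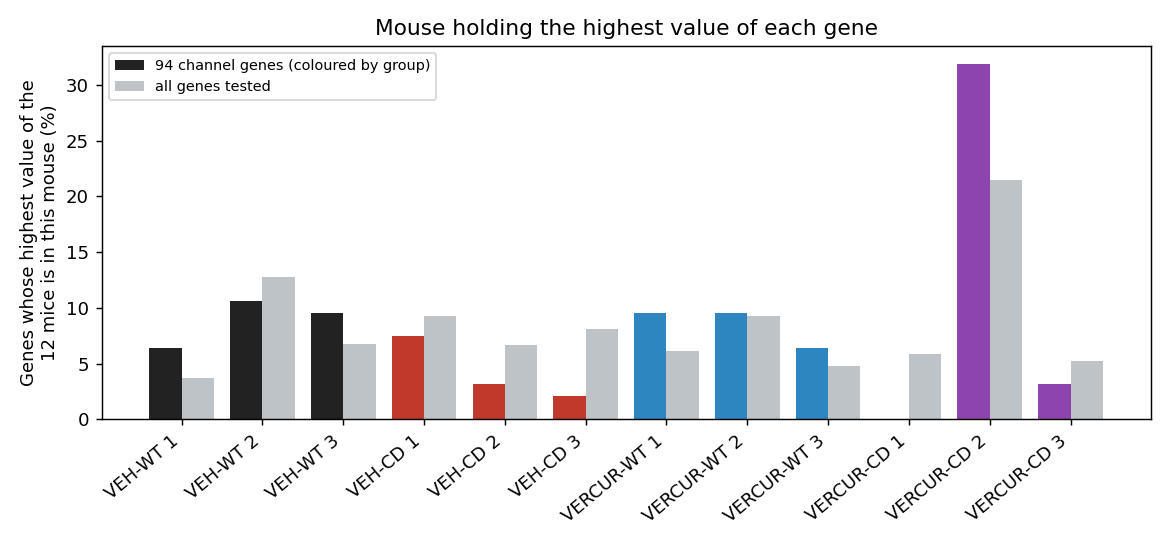
Share of genes (%) whose highest value among the 12 mice is in the given mouse, for the 94 channel genes (bars coloured by group) and for all genes tested (grey). VERCUR-CD 2 holds 31.9% of the channel genes and VERCUR-CD 1 none.

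The first comparison asked whether the deletion, without co-treatment, went with other channel levels in cortex. None of the 94 channel genes was differentially expressed between VEH-CD and VEH-WT mice by limma (Benjamini-Hochberg adjusted p below 0.05 and a change of over 25% in either direction), while 0.257% of all genes tested were. At an unadjusted p below 0.05 there were 10 channel genes, 1 higher and 9 lower in VEH-CD, or 10.6% of the set, against 11.8% of all genes tested. By direction, the 9 lower genes were 9.57% of the set against 6.73% of all genes tested, and the 1 higher gene 1.06% against 5.07%. The number below that p moved from 5 to 17 as each of the 12 mice was left out in turn, lowest without VEH-WT 3 and highest without VERCUR-CD 2. Without the 4 mice of high striatal markers it was 1. The 4 groups share 1 estimate of the spread, so mice of other groups enter these p-values. In a fit of VEH-CD and VEH-WT mice alone, 19 channel genes were below that p, with a smallest adjusted p of 0.088 by limma. The share of all genes in that fit was not computed.

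Taken as a set, channel genes had differences below 0 more often than above it. The median log2 fold change of the 94 genes was -0.096, against -0.0028 for all genes tested, and 29 of the 94 were above 0 (30.9%, against 49.3% of all genes tested) and 65 below. Quantile normalization left 61 below 0 and median centring 65. The values of the 3 mice of each group did not overlap and were lower in VEH-CD for 24 channel genes, 25.5% of the set, against 11.4% of all genes tested. They did not overlap and were higher for 1 gene, against 9.28%. Of the 24 genes, 11 were Kv alpha subunits (among them Kcna2, Kcna3, Kcnc1, Kcnc2, Kcnh5, Kcnh7, Kcnh8, Kcnq3 and Kcnq5), 3 were K2P and 3 were Nav alpha subunits. The mean over the 3 mice was highest of the 4 groups in VEH-WT for 35 channel genes (37.2%, against 28.3% of all genes) and lowest in VEH-CD for 34 (36.2%, against 29.7%).

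Several sums moved in the same mice. The interneuron marker sum (7 of 7 present, none at 0) was 43530 to 47540 normalized counts in VEH-WT, 38710 to 41800 in VEH-CD, 40190 to 43650 in VERCUR-WT and 40230 to 41030 in VERCUR-CD. The immediate early gene sum (9 of 9 present), which follows recent neuronal activity, was 56320 to 94760 in VEH-WT, 16030 to 37720 in VEH-CD, 27350 to 53660 in VERCUR-WT and 29190 to 48590 in VERCUR-CD. For both sums the VEH-WT mice were above the VEH-CD mice without overlap. The part of either in the channel values was not tested. In bulk cortex, fewer cells of a type and less RNA per cell cannot be told apart.

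Kcnc1 (Kv3.1, chr7:46396497-46438704 in GRCm38), a Kv alpha subunit that lets fast-spiking neurons fire at high rates, lay at 12687, 12533 and 12519 normalized counts in VEH-WT mice and at 11067, 11071 and 11700 in VEH-CD. The groups did not overlap, and the log2 fold change was -0.16 ± 0.06 (SE, limma, Benjamini-Hochberg adjusted p = 0.32). The VEH-WT values were close together, and 2 of the 3 VEH-CD values lay well below the third.

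Of the 9 silent subunits, 6 had log2 fold changes below 0 and 3 above, and 2, Kcns1 and Kcns3, had an unadjusted p below 0.05. Kcns1 (chr2:164163619-164171113) lay at 1394, 1406 and 1415 normalized counts in VEH-WT mice and at 1194, 1091 and 1334 in VEH-CD. Kcns3 lay at 333, 342 and 334 against 292, 309 and 265. All 3 VEH-WT values of each gene were above all 3 VEH-CD values, with log2 fold changes of -0.22 ± 0.09 for Kcns1 and -0.22 ± 0.09 for Kcns3 and adjusted p of 0.357 and 0.331 by limma.

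Kcnab3, a Kv beta subunit that binds Kv1 channels, showed the largest difference of the 10 genes. Its values were 2997, 3265 and 3709 normalized counts in VEH-WT mice and 2658, 2155 and 2778 in VEH-CD, without overlap. The log2 fold change was -0.40 ± 0.14 (adjusted p = 0.308, limma), and it was the 1 channel gene still below an unadjusted p of 0.05 without the 4 mice of high striatal markers, at a log2 fold change of -0.35.

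Among K2P channels, Kcnk3 (TASK-1, chr5:30588170-30625271) had the smallest p of all 94 genes. It lay at 2185, 2190 and 2177 normalized counts in VEH-WT mice and at 1974, 1905 and 1979 in VEH-CD. The VEH-WT values were close together and above the whole VEH-CD group, with a log2 fold change of -0.16 ± 0.05 (adjusted p = 0.268, limma). Kcnk3 lies on the chromosome of the deletion but outside the deleted interval, as do the other 2 channel genes of chromosome 5, Kcnh2 and Kcnip4. Kcnk12, a K2P channel whose current is not well described, had means of 759 and 617 (log2 fold change -0.30 ± 0.11, adjusted p = 0.331, limma). The sum of the 10 K2P genes was 16310 to 16680 in VEH-WT and 15170 to 15650 in VEH-CD.

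Scn1a, the Nav1.1 channel that carries much of the sodium current of parvalbumin interneurons, lay at 6574, 6509 and 7630 normalized counts in VEH-WT mice and at 5180, 5474 and 5467 in VEH-CD. The groups did not overlap, with a log2 fold change of -0.36 ± 0.12 (adjusted p = 0.28, limma). The other neuronal alpha subunits showed smaller differences, with log2 fold changes of 0.0028 for Scn2a, 0.0032 for Scn3a and -0.13 for Scn8a. Pvalb, the marker of those interneurons, lay at 2773, 2502 and 2818 in VEH-WT and at 2473, 1793 and 2593 in VEH-CD, which overlapped.

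The 1 gene of higher value was Kcnj4 (Kir2.3, an inward rectifier strong in forebrain neurons), at 7632, 8013 and 7323 normalized counts in VEH-WT mice and 9082, 8298 and 8657 in VEH-CD. All 3 VEH-CD values were above the VEH-WT values, with a log2 fold change of 0.18 ± 0.07 (adjusted p = 0.349, limma).

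**Figure D4:**
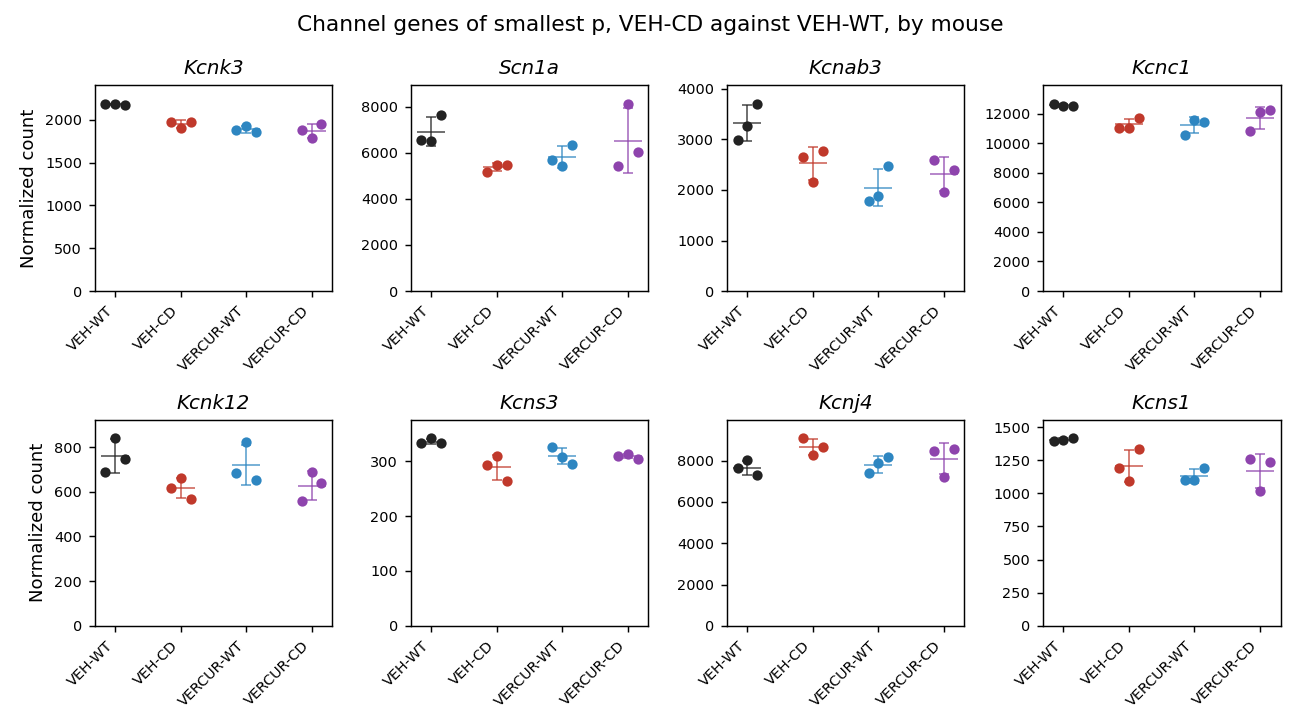
Normalized counts (y axes, from 0) of 8 of the 10 channel genes with an unadjusted p below 0.05 between VEH-CD and VEH-WT, in each mouse of the 4 groups, with the group mean (bar) and SD (error bar, n = 3). In all but Kcnj4 the VEH-WT mice lie above the VEH-CD mice.

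The precision set what could have been seen. The 95% interval of the fold change between VEH-CD and VEH-WT stayed within 25% of no change for 47 of the 94 genes, and the log2 interval wholly between -1 and 1 for 84. For the other 47 genes the interval reached past at least 1 of the study's fold limits. Kcne4, an auxiliary subunit of Kv1 and Kv7 channels, is listed by the study among its most downregulated genes in VEH-CD mice. Here its values were 46, 73 and 76 normalized counts in VEH-WT mice and 47, 35 and 69 in VEH-CD, which overlapped (log2 fold change -0.38 ± 0.35, limma). The study's methods describe a correction by CV with a limit of 20%. With the farthest value removed from each group of CV 20% or more, which narrows the spread, the log2 fold change was -0.86 (adjusted p = 0.0226, limma).

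Co-treatment was compared first in WT mice. None of the 94 channel genes was differentially expressed between VERCUR-WT and VEH-WT mice by limma, as 0% of all genes tested were. There were 8 channel genes at an unadjusted p below 0.05 (8.51% of the set, against 5.22% of all genes tested), 1 higher (1.06%, against 1.97%) and 7 lower (7.45%, against 3.25%). The number moved from 7 to 16 as single mice were left out, lowest without VERCUR-WT 1 and highest without VERCUR-WT 3, and was 10 without the 4 mice of high striatal markers. Values without overlap were lower for 15 channel genes, 16% of the set against 5.25% of all genes, and higher for 2, against 4.48%. The median log2 fold change was -0.052, against -0.0014 for all genes tested, with 33 of the 94 above 0 (35.1%, against 49.5%). Without VEH-WT 3 the median was -0.015, with 54 of the 94 below 0 in place of 61.

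The gene of smallest p was Kcnab3, at 1780, 1889 and 2477 normalized counts in VERCUR-WT mice against 2997 to 3709 in VEH-WT. The groups did not overlap. Its log2 fold change was -0.71 ± 0.14, with an unadjusted p of 0.000295 and an adjusted p of 0.742 by limma. Kcnk13, a K2P channel also known from microglia, lay at 199, 279 and 343 in VERCUR-WT mice and at 396, 388 and 445 in VEH-WT (log2 fold change -0.61 ± 0.17, adjusted p = 0.932, limma). Kcnk3 had a log2 fold change of -0.21 ± 0.05, Kcns1 of -0.31 ± 0.09 and Kcnc1 of -0.17 ± 0.06, all with adjusted p of 0.867 to 0.944 by limma. Kcng2, a silent Kv subunit, was the 1 gene of higher value, with means of 471 and 377.

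The comparisons of VEH-CD and of VERCUR-WT mice share the same 3 VEH-WT mice, so the values of those mice enter both. In 5 genes, Kcnab3, Kcnc1, Kcnk3, Kcns1 and Kcns3, the 3 VEH-WT mice were above all 9 other mice, against 1.43% of all genes tested, and in 0 channel genes they were below all 9, against 0.964%. Kcnk3 shows this most plainly: VERCUR-WT mice lay at 1880, 1931 and 1858 normalized counts and VERCUR-CD mice at 1885, 1787 and 1948, next to VEH-CD mice and under the VEH-WT range of 2177 to 2190. For Kcns3 the other groups came as close as 325 in VERCUR-WT 1, against 333 in the lowest VEH-WT mouse.

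The promoters of 2 of these genes are printed because the genes shared this pattern and RefSeq holds their start sites (build GRCm38.p6). The 150 bases before each start site are given 5′ to 3′ on the gene's own strand, with matches to the GC box GGGCGG, searched on both strands, in capitals. They are Kcnc1 (chr7:46396318-46396467, plus strand) and Kcns1 (chr2:164171114-164171263, minus strand).
Kcnc1: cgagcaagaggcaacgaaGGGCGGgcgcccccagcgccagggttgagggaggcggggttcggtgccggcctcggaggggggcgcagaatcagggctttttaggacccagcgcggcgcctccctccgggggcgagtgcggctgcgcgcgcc
Kcns1: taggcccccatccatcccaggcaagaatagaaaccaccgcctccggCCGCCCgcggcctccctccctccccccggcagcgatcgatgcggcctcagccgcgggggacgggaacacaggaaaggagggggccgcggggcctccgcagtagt

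Both windows are rich in G and C (75.3% and 72%, with 19 and 15 CpG). Promoters were matched for 65 of the 94 channel genes. Kcnab3 and Kcnk3 were not among them. In the 250 bases before the start, a GC box stood in 30 of the 65 (46.2%) and in 57.4% of 12156 promoters, the TATA box TATAAA in 2 (3.08%, against 6.59%), and the full cyclic AMP response element TGACGTCA in 0 (against 2.64%). The median GC content was 60.8% in channel gene promoters and 59.6% in all promoters. These are letters of the reference and not measured binding.

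In CD mice, co-treatment was followed in the same way. None of the 94 channel genes was differentially expressed between VERCUR-CD and VEH-CD mice by limma, as 0% of all genes tested were. There were 7 at an unadjusted p below 0.05 (7.45% of the set, against 3.54% of all genes tested), 6 higher (6.38%, against 2.09%) and 1 lower (1.06%, against 1.44%). The number moved from 1 without VEH-WT 1 to 20 without VERCUR-CD 1. The median log2 fold change was 0.017, with 50 of 94 above 0 (53.2%, against 50.8% of all genes tested), and it lay between -0.0018 without VERCUR-CD 2 and 0.051 without VEH-CD 2. By class it was 0.21 for Nav alpha and 0.055 for Kv alpha subunits, and -0.062 for Nav beta subunits. Without VERCUR-CD 2 these class medians were 0.052, 0.010 and -0.11.

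The 6 genes of higher mean were Kcnb2, Kcnh5, Kcnh7 and Kcnq5, all Kv alpha subunits, Kcnmb2, a BK auxiliary subunit, and Kcnj16, a glial Kir subunit. In all 6 the groups overlapped, and VERCUR-CD 2 was the highest of the 12 mice in each. Kcnj16 lay at 1234, 1775 and 1569 normalized counts in VERCUR-CD mice and at 1236, 1069 and 1233 in VEH-CD (log2 fold change 0.36 ± 0.15, adjusted p = 0.867, limma). Without VERCUR-CD 2 none of the 6 stayed below an unadjusted p of 0.05, and 2 other channel genes of the 94 passed it. Without the 4 mice of high striatal markers the number was 17.

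The genes without overlap were Kcnip3 and Kcnk13, both lower in VERCUR-CD. Kcnip3, a calcium-binding partner of Kv4 channels also known as a transcriptional repressor, lay at 7821, 7349 and 7347 normalized counts in VERCUR-CD mice and at 8316, 8048 and 7984 in VEH-CD. The log2 fold change was -0.11 ± 0.05 (adjusted p = 0.867, limma). Such lower values without overlap were found in 2.13% of the channel genes and in 4.63% of all genes tested, and higher ones in 0 channel genes and 3.71% of all genes.

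The effect of the deletion under co-treatment was compared between VERCUR-CD and VERCUR-WT mice. None of the 94 channel genes was differentially expressed by limma, against 0.146% of all genes tested. At an unadjusted p below 0.05 there were 4, all higher in VERCUR-CD (4.26% of the set, against 4.1% of all genes tested, of which 2.19% higher and 1.91% lower). The number moved from 1 to 15 as single mice were left out, lowest without VERCUR-WT 2 and highest without VERCUR-CD 1, and was 12 without the 4 mice of high striatal markers. The 4 genes were the K2P subunits Kcnk6 and Kcnk10 and the Kir subunits Kcnj11, the pore of neuronal ATP-sensitive channels, and Kcnj16. Kcnk6 was the 1 gene of higher value without overlap (against 3.91% of all genes), at 232, 283 and 260 normalized counts against 222, 216 and 185 (log2 fold change 0.31 ± 0.11, adjusted p = 0.9999, limma). Lower without overlap were 2 genes (against 3.83%), Kcnj12, the Kir2.2 subunit, and Kcnu1, a subunit known from sperm, at 127 normalized counts on average. The median log2 fold change was 0.015, with -0.024 without VERCUR-CD 2 and 0.039 without VERCUR-WT 3.

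VERCUR-CD mice were also compared with the VEH-WT group, the comparison by which the study judged recovery. None of the 94 channel genes was differentially expressed by limma, against 0.199% of all genes tested. At an unadjusted p below 0.05 there were 7, all lower in VERCUR-CD (7.45% of the set, against 8.68% of all genes tested, of which 3.92% higher and 4.76% lower). The number moved from 5 without VEH-WT 3 to 14 without VERCUR-CD 1, and was 15 without the 4 mice of high striatal markers. Values without overlap were lower for 9 channel genes (9.57%, against 7.33%) and higher for 1, Kcnk10 (against 6.56%). The 7 genes were Kcnk1, Kcnk3, Kcnk12 and Kcnk13 of the K2P class, Kcnab3, Kcnj12 and Kcns1. Kcnk3 had a log2 fold change of -0.22 ± 0.05 (adjusted p = 0.242, limma), and Kcnab3, at 2595, 1952 and 2402 normalized counts in VERCUR-CD mice, of -0.53 ± 0.14 (adjusted p = 0.334, limma). The groups did not overlap in either. The sum of K2P counts in VERCUR-CD mice, 15210 to 15860, also stayed under the VEH-WT range.

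**Figure D5:**
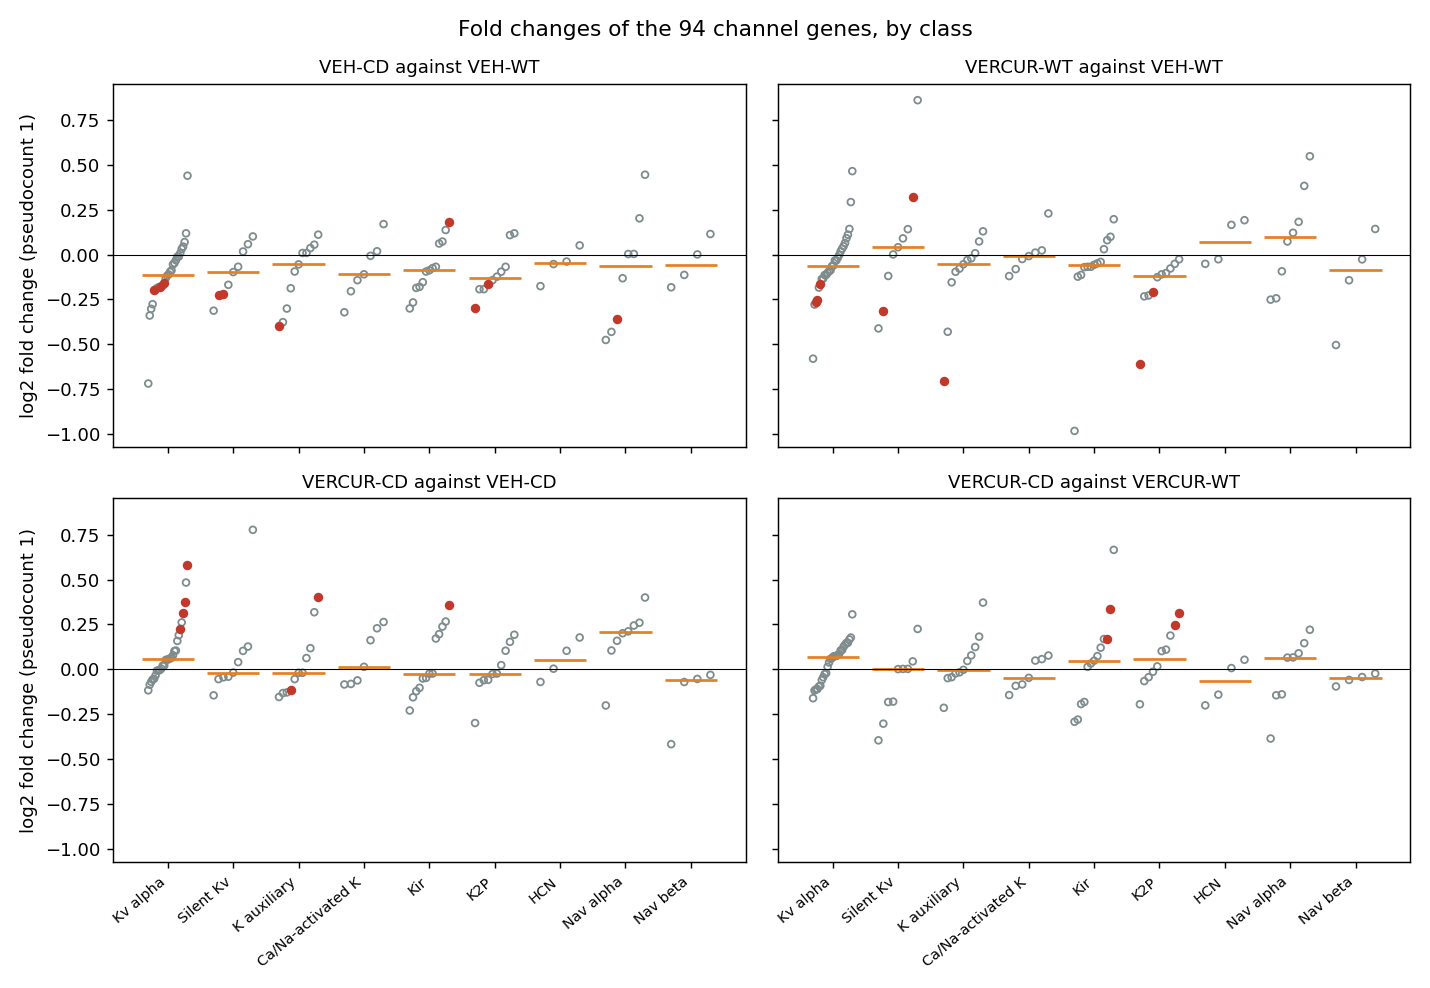
Log2 fold changes (pseudocount 1) of the 94 channel genes in 4 comparisons, by class. Each point is a gene, filled where its unadjusted p is below 0.05, and the orange lines are class medians. Against VEH-WT most points lie below 0 (65 of 94 in VEH-CD, 61 of 94 in VERCUR-WT), while the lower panels are spread around 0.

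The interaction tested whether the genotype difference changed with co-treatment. It passed an adjusted p of 0.05 for none of the 94 channel genes and for 0% of all genes tested by limma. At an unadjusted p below 0.05 there were 6 channel genes (6.38%, against 6.05% of all genes tested), all with a positive interaction (against 3.72%), among them Scn1a, Kcnab3, Kcnc1, Kcna2 and Kcnk6. In each, the CD minus WT difference was higher under VERCUR than under VEH. Their number moved from 5 to 20 as single mice were left out, lowest without VEH-WT 3 and highest without VERCUR-CD 1, and was 8 without the 4 mice of high striatal markers. For Scn1a the CD minus WT difference was -0.36 under VEH and 0.15 under VERCUR on the log2 scale, an interaction of 0.50 ± 0.17 (adjusted p = 0.816, limma). Its VERCUR-CD values were 5414, 8134 and 6043 normalized counts, and the interaction was 0.33 without VERCUR-CD 2. For Kcnab3 the interaction was 0.58 ± 0.20 with VERCUR-CD 2 and 0.70 without it.

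Averaged over both treatments, none of the 94 channel genes differed between CD and WT mice by limma, against 0.321% of all genes, and 7 had an unadjusted p below 0.05, 3 higher and 4 lower (7.45%, against 9.64% of all genes tested, of which 4.78% higher and 4.86% lower). The 3 higher were Kcnj4, Kcnj11 and Kcnk10, and the 4 lower included Kcnk3, Kcnk12 and Kcnj12. The number moved from 2 without VEH-CD 1 to 13 without VERCUR-CD 2, and was 4 without the 4 mice of high striatal markers. Averaged over both genotypes, none differed between VERCUR and VEH, as 0% of all genes did, and 7 had an unadjusted p below 0.05 by limma, 2 higher and 5 lower (7.45%, against 2.96%, of which 1.45% higher and 1.51% lower). The 2 higher were Kcng2 and Kcng3, and the 5 lower Kcnab3, Kcnip3, Kcnk3, Kcnk13 and Kcns1. This number moved from 4 without VEH-CD 3 to 23 without VERCUR-CD 1, and was 15 without the 4 mice of high striatal markers. Kcnab3 had means of 2183 under VERCUR and 2927 under VEH, a log2 fold change of -0.42 ± 0.10 (adjusted p = 0.99975, limma). Kcng3, a silent subunit of low level, lay at 17 to 38 normalized counts in the 6 VEH mice and at 18 to 81 in the 6 VERCUR mice, which overlapped.

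The Kv genes closest to the known targets of verapamil were followed by name. Kcnh2, the ERG channel, lay at 2118, 2077 and 1996 normalized counts in VEH-WT mice, at 2095, 2147 and 2141 in VEH-CD, at 2039, 2189 and 2044 in VERCUR-WT and at 1955, 2028 and 2176 in VERCUR-CD. The 4 groups overlapped, and the log2 difference between VERCUR and VEH averaged over genotypes was -0.017, with a 95% interval from -0.11 to 0.073. For Kcna1 to Kcna6, the Kv1 family, the same difference was 0.0028, -0.015, 0.39, 0.034, -0.11 and -0.059. Kcna3, the highest of these, lay at 166 to 283 in the 6 VEH mice and at 178 to 567 in the 6 VERCUR mice, with 2 values, 417 in VERCUR-WT 1 and 567 in VERCUR-CD 2, above all others.

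The HCN genes Hcn2, Hcn3 and Hcn4 had log2 fold changes of 0.051, -0.039 and -0.053 between VEH-CD and VEH-WT, with 95% intervals of -0.18 to 0.29, -0.33 to 0.25 and -0.36 to 0.25. The sum of the 4 HCN genes was 15680 to 17270 normalized counts in VEH-WT and 15430 to 17230 in VEH-CD, which overlapped.

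A list of 39 genes whose products bind, anchor or work beside these channels was described in the same way, and 38 were in the table. None was differentially expressed in any of the 8 comparisons by limma. Between VEH-CD and VEH-WT the median log2 fold change of the 38 was -0.10, and 10 (26.3%, against 11.4% of all genes tested) were lower without overlap. At an unadjusted p below 0.05 there was 1 (2.63% lower, against 6.73%), Nfasc, the neurofascin that anchors sodium channels at the axon initial segment and nodes, with means of 12204 and 13923 and no overlap. In VERCUR-CD, 4 had means lower than in VEH-WT at an unadjusted p below 0.05 (10.5%, against 4.76% of all genes), among them Nfasc, Fgf11 and Cntn2, which clusters Kv1 channels beside nodes. Cntn2 also had a lower mean in VERCUR-WT, 5831 against 7417, where the oligodendrocyte marker sum was 77610, 126500 and 200500, against 142100 to 223000 in VEH-WT, and its part was not tested.

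Several channel genes lie side by side in the genome. Scn3a and Scn2a, then Scn1a, Scn9a and Scn7a, stand in a row on chromosome 2, and Kcna5, Kcna1 and Kcna6 on chromosome 6, with gaps between them. On chromosome 11 the span of Kcnip1, on the minus strand, contains that of Kcnmb1, on the plus strand. Whether their exons overlap was not checked, so it is not known whether any reads are ambiguous. Some neighbours differed widely in level: Scn1a and Scn9a, 39239 bases apart, stood at 553 and 1.89 normalized counts per kilobase. Others were close, such as Kcnj9 and Kcnj10 on chromosome 1, 11891 bases apart, at 2130 and 1894.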

How the data were processed

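Cortical RNA of 12 mice was sequenced by the authors as paired-end reads, which were mapped to GRCm38 with STAR 2.5.3a per the labels and the methods. The deposited table holds normalized counts per gene with decimal commas. The counting and scaling tools are not given in the sources used here, nor is it stated whether strand was used. Within a tolerance of 0.1 step, 100% of low values in each mouse were multiples of that mouse's smallest step, and this step gave the counted reads. Tables of expression relative to the VEH-WT mean, for genes the authors picked, were not used.

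Columns were mapped to mice by the sample names in the labels, and 0 sample columns were left unmapped. Genes averaging 10 or more were tested on log2(normalized count + 1) with limma 3.58.1 (R 4.3.3; lmFit, eBayes with trend), with 1 mean for each of 4 groups in 1 fit and Benjamini-Hochberg adjustment over all 17111 genes. The fold limit was a change of 25% in either direction, as in the study. Fold changes on this scale understate those of low genes. Groups were said not to overlap where every mouse of one was above every mouse of the other. Nothing says that mice of 1 group came from separate litters, so p-values measure the spread between these mice. Lengths are exon unions of GENCODE M21, which held all 94 genes. Promoters are from RefSeq. In counts simulated for VEH-CD against VEH-WT over 17111 genes, 81% of 100 genes changed by 1 on the log2 scale were called, 28% of 100 changed by 0.4, and 11 of 16911 unchanged genes. The changes went in both directions, and genes of low mean were not among those changed. A fall of 0.4 does not reach the lower fold limit and is called only where the fitted fall is larger. The edgeR and DESeq2 alternatives were not run. Same-numbered mice did not deviate together, so no block was used.

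Named genes were the 3 of smallest p per comparison whose groups did not overlap (interaction: the 3 of smallest p), the gene of highest level per class, the HCN genes, Scn1a, Scn2a, Scn3a, Scn8a, Kcna1 to Kcna6, Kcnh2, Kcne4 and the 3 of lowest mean. Some genes that the rule names are not reported here. Other genes were named with their values in view. The members and lists were chosen with earlier results of these data known.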

Additional observations from a re-analysis of the deposited data

How the results depend on the processing

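No channel gene was called in any of the 8 comparisons, and 192 of 204 recomputed counts were also 0. Among them are those with a pseudocount of 0.1 or 5, no filter or a mean of at least 50, quantile normalization, median centring, a limit of 20% on the CV of each group, only the groups compared, no intensity trend and adjusted p alone. As each of the 12 mice was left out the counts ranged from 0 to 0. Removing the farthest value of each group whose CV was 20% or more, which drops a mouse gene by gene and narrows the spread, called 3 channel genes in VEH-CD against VEH-WT (among them Kcne4 and Kcnq1), 3 in VERCUR-WT against VEH-WT (Kcnab3, Scn7a and Scn4b), 5 in VERCUR-CD against VEH-WT (Kcnab3, Scn7a, Scn4b, Kcnk13 and Kcnmb1), 1 in CD against WT (Kcne4) and 4 in VERCUR against VEH (Kcnab3, Scn7a, Scn4b and Kcnmb1). Over all genes the count in VEH-CD against VEH-WT went from 44 to 972 under that setting, and to 81 under the CV limit. An unadjusted p below 0.05 with the fold limits passed 1 in VERCUR-CD against VERCUR-WT, 4 in VERCUR-CD against VEH-CD, 3 in VERCUR-WT against VEH-WT, 2 in VERCUR-CD against VEH-WT, 1 in CD against WT, 3 in VERCUR against VEH and, with no fold limit, 6 in the interaction.

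With the replicate number as a block, 0 channel genes were called in each comparison, and 40 of all genes in VEH-CD against VEH-WT. Over 18 same-numbered pairs the deviations correlated from -0.347 to 0.267, 4 pairs were over 0.1, and 1 of 12 mice correlated best with its own number, so the numbers did not pair the mice. Without the 4 mice of highest striatal marker sum, an alternative chosen after seeing the data, 0 channel genes were called. The median log2 fold change of the 94 genes was then -0.068 in VEH-CD against VEH-WT and -0.032 in VERCUR-WT against VEH-WT, and turned to 0.0059 in VERCUR-CD against VEH-WT, 0.0059 in CD against WT and 0.011 in VERCUR against VEH. The edgeR and DESeq2 alternatives were not run on the reads recovered from the deposited values. In the simulated counts, 28% of changes of 0.4 on the log2 scale were called. The simulated falls of 0.4 did not reach the lower fold limit, so this share does not show what 3 mice a group can detect.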
